A study of Mus musculus with 16 samples.

Results

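The effect of losing T1α on lung gene expression was compared between birth and late gestation, as the difference between 2 genotype effects. All 16 arrays of the series entered 1 fit of 4 groups, and the contrast was (-/-) minus (+/+) at term, less (-/-) minus (+/+) at E18.5. The same number is the change from E18.5 to term in (-/-) lungs less the change in (+/+) lungs, so a negative value marks a gene that rose less, or fell more, over birth in the (-/-) lung. Of the 12488 probe sets on the array, 6405 had enough signal to be tested. No probe set differed in its genotype effect between the times after adjustment for the number tested.

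T1α, encoded by Pdpn and also called podoplanin, is a membrane protein of type I alveolar epithelial cells, the flat cells across which gas is exchanged. T1α(-/-) mice form narrow alveolar sacs, cannot inflate their lungs and die at birth. Around birth the lung stops growing by rapid cell division, clears its fluid, fills with air and is stretched by breathing. Immediate early genes, such as Fos, Jun and Egr1, are switched on without new protein synthesis within minutes of stretch, stress or growth factors, and most encode transcription factors.

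The E18.5 groups were 5 T1α(-/-) and 5 T1α(+/+) fetal lungs, and the term groups were 3 T1α(-/-) and 3 T1α(+/+) lungs of pups taken within minutes of natural delivery. All came from matings of T1α(+/-) parents, and T1α is lost from every cell of the (-/-) animal, not from the lung alone. Whole-lung RNA was hybridized to U74Av2 arrays of the murine genome from Affymetrix, 1 array a lung, with each array's values scaled to a common mean by the authors. Strain, litter, sex and processing batch are not given in the sources used here. Values below are signals, which are background-corrected intensities with no unit, or differences on the scale of log2(signal + 16), where 1 stands for a doubling of signals far above 16. The number 16 was added to damp the noise of low signals, so the difference of a dim gene is understated. Where signals of both genotypes follow each other with no label, those of the (-/-) lungs come first.

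The targeted gene followed the labels at both times. Pdpn signals were 1.4, 16.5, 19.8, 21.2 and 8.6 in E18.5 (-/-) lungs and 112, 114, 60.2, 136 and 126 in E18.5 (+/+) lungs. At term they were 9.0, 8.6 and 30.0 in (-/-) and 88.5, 39.7 and 215 in (+/+) lungs, so every (-/-) array lay below every (+/+) array of its time. Before birth the genotype effect on Pdpn itself came to -2.10 and at term to -1.86, and the difference of the effects was 0.25 (SE 0.54, 95% interval -0.88 to 1.37). Markers of lung epithelium were bright on all arrays, with Sftpc, the surfactant protein of type II cells, at 12642 to 23475 in E18.5 (-/-), 9662 to 24193 in E18.5 (+/+), 5027 to 7866 in term (-/-) and 5203 to 6709 in term (+/+) lungs.

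Some arrays stood apart. Replicate I of the E18.5 (+/+) lungs had a median signal of 61, against 38 to 44.6 on the other 4 of its group, and a mean of 35.3 for bacterial control probe sets to which no transcript was added, against 3.58 to 11.1 on the other 15 arrays. The signal that the brightest 0.5% of an array's probe sets exceeded ran from 2588 to 4888 at E18.5 and from 2341 to 2895 at term, so time and the upper range of the scaled signals cannot be told apart. The 3′ to 5′ signal ratio of GAPDH, a measure of RNA integrity, reached 2.63 on term (-/-) replicate G and 2.55 on term (+/+) replicate O, against at most 1.84 on the others. Xist, which is expressed from the inactive X of females, was 75.8 on replicate G and 6.7 to 10.6 on the other 5 term arrays, and 14.3 to 99.8 at E18.5. The Y-linked gene Eif2s3y was 6.5 on replicate G and 43.9 to 58.9 on the other 5 term arrays. At E18.5 Eif2s3y was 2.1 to 33.4 in (-/-) and 4.7 to 49.6 in (+/+) lungs. By these signals the sexes were unequal between the term genotypes. Both E18.5 genotypes held low and high values, and whether the sexes were balanced there was not tested. The summed signal of 17 cardiac and skeletal muscle genes, which mark heart or chest wall taken with the lung, ranged from 1889 to 33373 over the E18.5 and from 1882 to 16067 over the term arrays. At term it was 16067, 1882 and 2390 on (-/-) replicates F, G and H, and 2061, 9027 and 5217 on (+/+) replicates N, O and P.

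Birth changed the lung of both genotypes widely. In (+/+) lungs 1577 of 6405 probe sets (24.6%) differed between term and E18.5 at an adjusted p under 0.05 by limma, 841 higher (13.1%) and 736 lower (11.5%) at term. In (-/-) lungs 1349 (21.1%) differed, 740 higher (11.6%) and 609 lower (9.51%). These 2 comparisons share no array. Of the calls, 985 were common to both genotypes, which is 62.5% of the (+/+) and 73.0% of the (-/-) calls, and all 985 had the same direction, 571 higher and 414 lower. The median change over all tested probe sets was -0.05 in (+/+) and -0.06 in (-/-) lungs.

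Against that background, 0 of 6405 probe sets (0%) passed an adjusted p under 0.05 for the difference between the genotypes' changes (limma, Benjamini-Hochberg), and the lowest adjusted p was 0.9997. At an unadjusted p under 0.05 there were 94 (1.47%), 42 positive (0.656%) and 52 negative (0.812%). Centering each array on its median turned that split to 22 positive and 59 negative. Where nothing differs, such a threshold lets through a share of about 0.05, so the 94 are no excess over chance. Of the 1941 probe sets that changed over birth in either genotype, 72 were among the 94. Genotype itself gave 2 calls at an adjusted p under 0.05 at E18.5 (0.0312%) and 0 at term (0%), with 406 (6.34%) and 33 (0.515%) at an unadjusted p under 0.05. The 406 held 193 that were higher (3.01%) and 213 lower (3.33%) in (-/-) lungs, and the 33 held 4 higher (0.0625%) and 29 lower (0.453%). The unequal numbers of lungs, 5 against 5 and 3 against 3, allow no comparison of those counts.

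**Figure D1:**
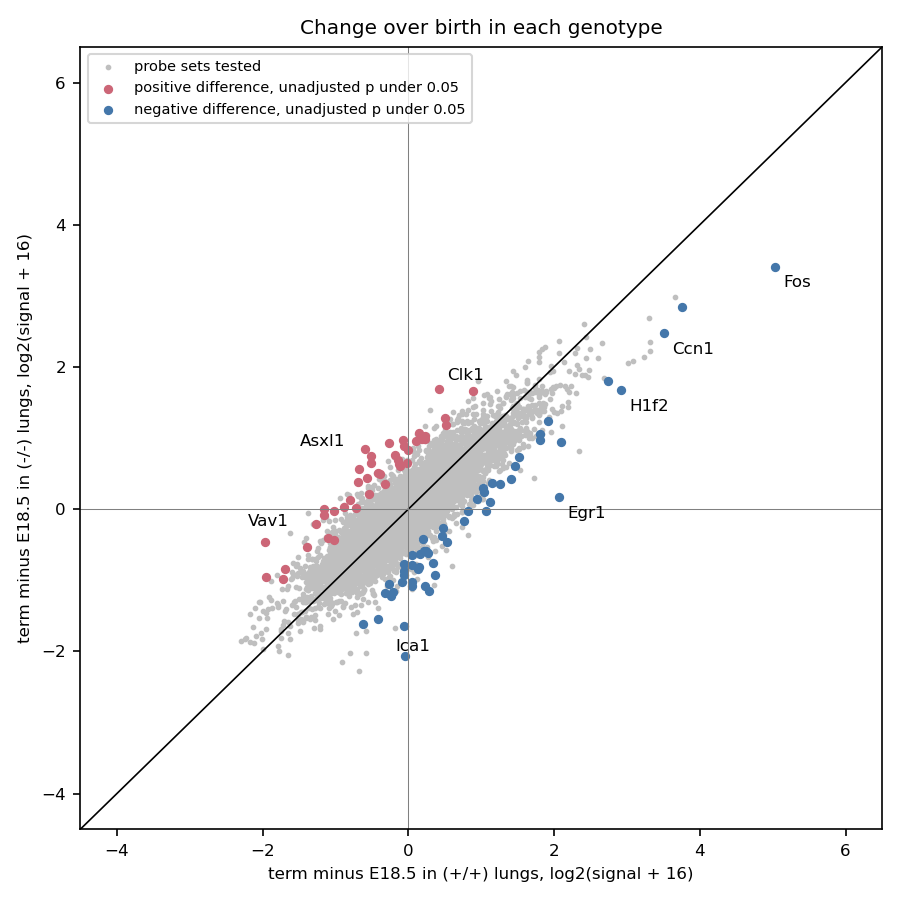
Each point is 1 of the 6405 tested probe sets, with its change from E18.5 to term in (+/+) lungs on the x axis and in (-/-) lungs on the y axis, both as differences of log2(signal + 16), and the diagonal marks equal changes. The cloud follows the diagonal, the 42 positive and 52 negative differences at an unadjusted p under 0.05 lie along its edges, and Fos, Ccn1, H1f2 and Egr1 lie below it on the right.

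A difference of genotype effects adds the error of 4 group means, and this set how small a difference could be seen. The standard error of the difference had a median of 0.38, and the 95% interval reached a median of 0.80, or 1.74-fold, to each side, with 0.64 and 1.09 as the 10th and 90th percentiles of that reach. The interval lay within -1 and 1 for 2949 of 6405 probe sets (46%), so for these a difference of more than a doubling of the scaled signal lies outside the interval. The difference itself had a median of -0.01 and ran from -0.68 to 0.66 over the middle 95% of probe sets. No probe set separated the genotypes in opposite directions at the 2 times: 69 (1.08%) had no overlap of the genotypes at E18.5, 208 (3.25%) had none at term, and 4 (0.0625%) had none at both, all in the same direction at the 2 times. With 3 lungs a genotype, groups without any difference also separate by chance, so no overlap at term is weak evidence alone.

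Immediate early genes rose over birth in both genotypes, with the larger median change in the (+/+) lung, though no gene passed the adjusted test of the difference. The list held 44 genes, of which 40 were on the array with a probe set of their own and 36 were tested. Of the 36, 26 rose in (+/+) lungs at an adjusted p under 0.05 (13.1% of all tested probe sets did) and 21 in (-/-) lungs (11.6%), and 0 fell in either (11.5% and 9.51%). The median change was 1.70 in (+/+) and 1.11 in (-/-) lungs. The difference was negative for 32 and positive for 4 of the 36, with a median of -0.48 against -0.01 over the whole tested set. Members lower at an unadjusted p under 0.05 numbered 5 of 36 (Egr1, Ccn1, Fos, Ier2 and Dusp1) and members higher 0, where 0.812% of all tested probe sets were lower and 0.656% higher. Several members, among them Egr1, Nr4a1, Fosb, Dusp1 and Ccn1, were reported by the study from these same arrays, and those array values are not independent evidence of the direction. Without those 5 the median over 31 genes was -0.38, with 27 negative. The study also measured Egr1, Nr4a1, Fosb and Dusp1 by PCR and reports them lower in (-/-) lungs at term. That is a genotype effect at 1 time and not the difference between times.

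As whole lung was measured, fewer cells that express a gene cannot be told apart from less of its RNA in each cell, here and in all that follows. The mean log2(signal + 16) over the 36 immediate early genes was 7.42 to 7.71 on the E18.5 (-/-) arrays and 7.24 to 7.79 on the E18.5 (+/+) arrays. At term it was 8.50, 8.95 and 8.62 on (-/-) replicates F, G and H, and 9.43, 9.19 and 8.84 on (+/+) replicates N, O and P. The genotypes thus overlapped at E18.5 and also at term, where replicate G, the array with the high GAPDH ratio and Xist, lay above replicate P. Without G the median difference was -0.64. Without F, the term array with the most muscle signal, it was -0.34. The part of RNA integrity, sex or muscle tissue in these values was not tested. Fits with the GAPDH ratio or Xist as a covariate kept the direction of every immediate early gene named at an unadjusted p under 0.05. Keeping a direction cannot tell genotype apart from either.

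**Figure D2:**
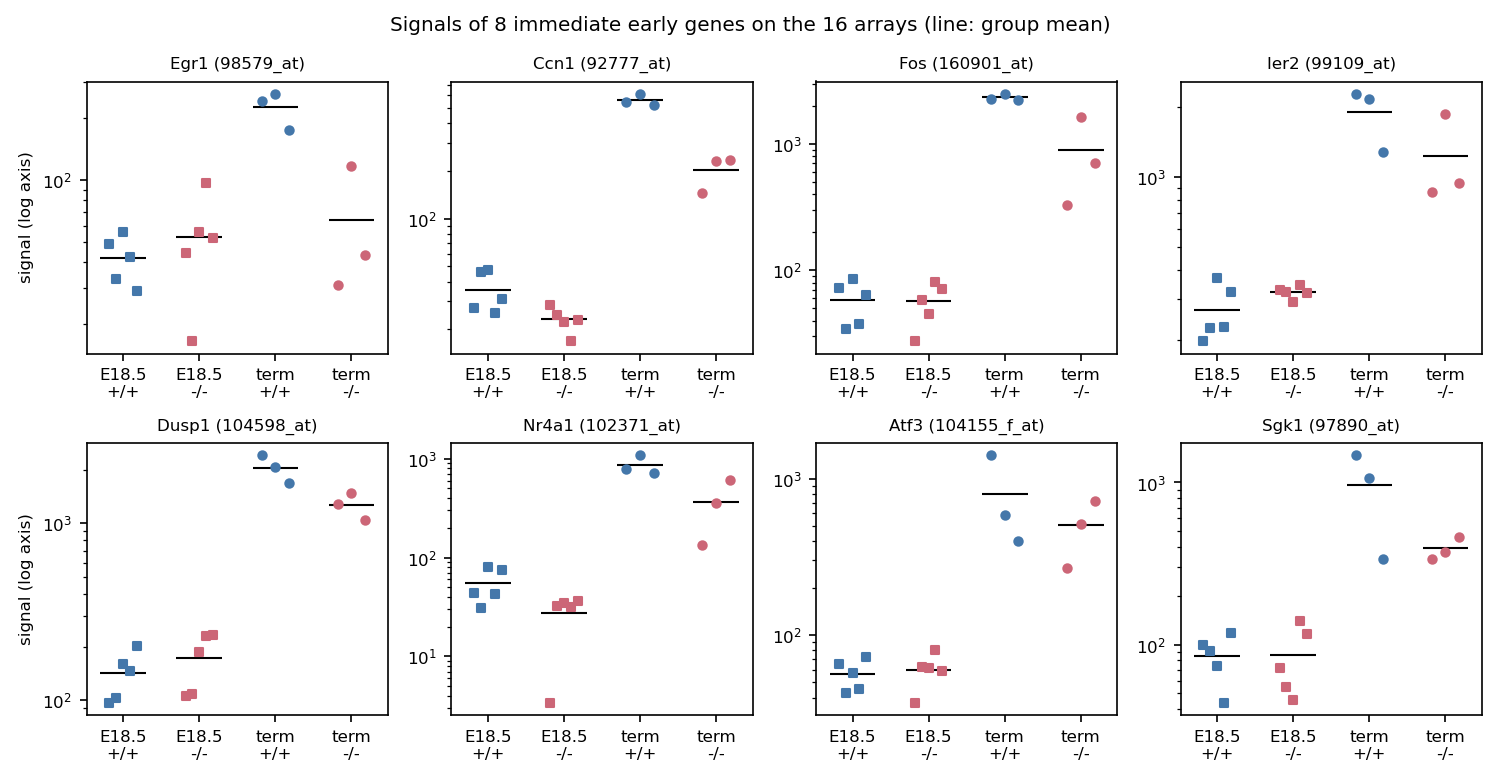
Each panel shows the signals of 1 probe set on a log axis, with squares for E18.5 and circles for term arrays, blue for (+/+) and red for (-/-) lungs, and a line at the group mean. Ccn1, Fos, Egr1 and Nr4a1 do not overlap between the genotypes at term, with Ccn1 at 145 to 235 against 521 to 614, while at E18.5 the 2 genotypes share a range for Egr1, Fos and Dusp1.

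The promoters of Fos, Ccn1 and Dusp1 are shown because these are the immediate early genes past the unadjusted threshold for which a sequence was at hand. CREB and ATF transcription factors, which are known to act on several immediate early genes, bind the cyclic AMP response element TGACGTCA and its core TGACGT. The sequences are the 250 bases before the transcription start in RefSeq annotation of GRCm38.p6, read 5′ to 3′ on the gene's strand, with searched motifs in capitals. The first is Fos at chr12:85473640-85473889 (plus strand), then Ccn1 at chr3:145649986-145650235 (minus strand) and Dusp1 at chr17:26508473-26508722 (minus strand).
Fos: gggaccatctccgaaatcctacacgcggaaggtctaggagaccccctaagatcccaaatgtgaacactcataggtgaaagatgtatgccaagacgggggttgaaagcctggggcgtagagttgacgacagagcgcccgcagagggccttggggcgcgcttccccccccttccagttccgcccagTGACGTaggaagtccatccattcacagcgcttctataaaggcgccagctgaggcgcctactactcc
Ccn1: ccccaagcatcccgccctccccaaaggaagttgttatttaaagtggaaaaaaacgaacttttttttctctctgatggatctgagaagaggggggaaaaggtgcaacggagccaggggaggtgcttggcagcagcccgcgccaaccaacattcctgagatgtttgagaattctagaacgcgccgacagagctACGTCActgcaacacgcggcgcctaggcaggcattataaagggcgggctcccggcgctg
Dusp1: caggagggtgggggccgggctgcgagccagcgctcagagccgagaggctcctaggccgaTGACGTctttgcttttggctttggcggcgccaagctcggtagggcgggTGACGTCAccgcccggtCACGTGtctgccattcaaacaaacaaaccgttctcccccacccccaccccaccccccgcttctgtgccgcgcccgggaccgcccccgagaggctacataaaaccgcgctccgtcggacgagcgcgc
The capitals mark TGACGT, or ACGTCA on the other strand, in Fos and Ccn1. In Dusp1 they mark TGACGT, the full cyclic AMP response element TGACGTCA, which contains TGACGT on both strands, and the E-box CACGTG. The match ends 61 bases before the start in Fos and 54 bases before it in Ccn1.

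Promoter windows were found for 30 of the 36 tested immediate early genes, and not for Egr1 or Ier2. Both strands were searched. TGACGT was in the windows of 8 of the 30 (26.7%), namely Atf3, Btg1, Btg2, Ccn1, Dusp1, Egr2, Errfi1 and Fos, against 7.29% of all 27025 genes with a window, but this motif was chosen after these sequences had been seen. The full element TGACGTCA was in 3 (10%), Btg2, Dusp1 and Errfi1, against 1.77% of all. The E-box CACGTG was in 8 (26.7%) against 6.86%, the serum response element known as the CArG box in 2 (6.67%), Egr2 and Zfp36, against 1.62%, and the AP-1 site TGANTCA in 1 (3.33%), Zfp36l1, against 7.82%. Of the 5 genes lower at an unadjusted p under 0.05, the 3 with a window (Fos, Ccn1 and Dusp1) held TGACGT, as did Atf3, Btg1, Btg2, Egr2 and Errfi1, whose differences did not pass. A match is a run of letters and says nothing of binding.

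Egr1, a zinc finger transcription factor, had the lowest p of all tested probe sets. Its signals at E18.5 were 44.1, 16.5, 55.8, 96.3 and 52.3 in (-/-) and 48.7, 33.2, 55.7, 42.4 and 29.0 in (+/+) lungs. At term they were 30.9, 117 and 43.5 in (-/-) and 242, 262 and 174 in (+/+) lungs. The 3 term (+/+) lungs thus stood above all 13 other arrays, and the term (-/-) lungs spanned the E18.5 range, with replicate G above it. Over birth Egr1 changed by 2.07 in (+/+) and 0.17 in (-/-) lungs, a difference of -1.91 (SE 0.49, 95% interval -2.92 to -0.89) (unadjusted p = 0.00085). A dimmer second probe set was not tested.

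Fos, the AP-1 subunit c-Fos, had the steepest rise of the immediate early genes. E18.5 signals were 27.5, 58.1, 45.5, 81.3 and 71.4 in (-/-) and 72.1, 34.2, 85.3, 37.6 and 63.6 in (+/+) lungs. Term signals were 328, 1637 and 712 in (-/-) and 2283, 2487 and 2239 in (+/+) lungs. The genotypes did not overlap at term, and the (-/-) lungs spread widely among themselves. Fos rose by 5.03 in (+/+) and 3.41 in (-/-) lungs, a difference of -1.62 (SE 0.53, 95% interval -2.72 to -0.52) (unadjusted p = 0.00587). Without replicate F the difference was -1.06 and without G it was -2.19.

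Ccn1, a secreted matricellular protein also known as Cyr61, was the most even of the group. Its E18.5 signals were 28.6, 24.7, 22.3, 16.8 and 22.8 in (-/-) and 27.2, 45.7, 47.6, 25.3 and 30.9 in (+/+) lungs, dim in both. At term they were 145, 232 and 235 in (-/-) and 549, 614 and 521 in (+/+) lungs, and every (-/-) lung lay below every (+/+) lung. The rise was 3.51 in (+/+) and 2.47 in (-/-) lungs, a difference of -1.04 (SE 0.31, 95% interval -1.68 to -0.40) (unadjusted p = 0.0029). On the linear scale a difference is one of signal and not of ratio. There Ccn1 had an adjusted p of 0.000337 by limma and was the only probe set to pass. That fit used 1 spread for all 4 groups. Signals within a group spanned 16.8 to 28.6 and 25.3 to 47.6 at E18.5, but 145 to 235 and 521 to 614 at term. The p may thus be too low. The study reports that other methods did not bear out the lower Cyr61 mRNA of these arrays. It also reports significantly more Cyr61 protein in lungs without T1α.

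Ier2, a nuclear protein of the early response, and Dusp1, the phosphatase that switches off MAP kinases, followed with smaller differences. Ier2 signals were 864, 1869 and 947 in term (-/-) and 2269.9, 2160.1 and 1274 in term (+/+) lungs, with overlap, and 291 to 344 and 198 to 368 at E18.5. Dusp1 signals were 1294, 1494 and 1048 in term (-/-) and 2428, 2085 and 1700.3 in term (+/+) lungs, with no overlap, and 105 to 233 and 96.5 to 203 at E18.5. Ier2 rose by 2.74 in (+/+) and 1.80 in (-/-) lungs, and Dusp1 by 3.76 and 2.84. The difference was -0.95 (SE 0.39, 95% interval -1.75 to -0.14) for Ier2 (unadjusted p = 0.023) and -0.92 (SE 0.40, 95% interval -1.76 to -0.08) for Dusp1 (unadjusted p = 0.0331).

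Other transcription factors of the class had negative differences that did not pass even the unadjusted threshold. Nr4a1, the orphan nuclear receptor Nur77, was 134, 355 and 605 in term (-/-) and 786, 1082 and 717 in term (+/+) lungs. It was also lower at E18.5, at 3.4, 32.2, 34.6, 31.3 and 36.0 against 44.0, 31.1, 81.0, 43.2 and 74.2, so that its genotype effects were -0.73 at E18.5 and -1.41 at term and their difference was -0.68 (SE 0.54, 95% interval -1.81 to 0.45). Without replicate F the Nr4a1 difference was only -0.12. Sgk1, a glucocorticoid-induced kinase that raises sodium channel activity, was 339.5, 375 and 464 and 1469.5, 1071 and 339.8 at term, where (+/+) replicate P lay within the (-/-) range, and differed by -1.0 (SE 0.54, 95% interval -2.14 to 0.13), with -1.62 without P and -0.59 without N. Junb, an AP-1 subunit, differed by -1.08 (SE 0.62, 95% interval -2.38 to 0.22) on 1 probe set, whose name marks relaxed selection rules, and by -1.09 on its other. Atf3, a stress-induced factor, gave -0.62 (SE 0.48, 95% interval -1.61 to 0.37), which shrank to -0.12 without replicate N. Fosb gave -0.61 (SE 0.44, 95% interval -1.53 to 0.31), and -0.39 without replicate D. The 4 positive members were Gadd45g at 0.20, Mcl1 at 0.11, Ier3 at 0.10 and Klf10 at 0.01, all within 1 SE of 0 and all of the other sign under at least 1 alternative setting.

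**Figure D3:**
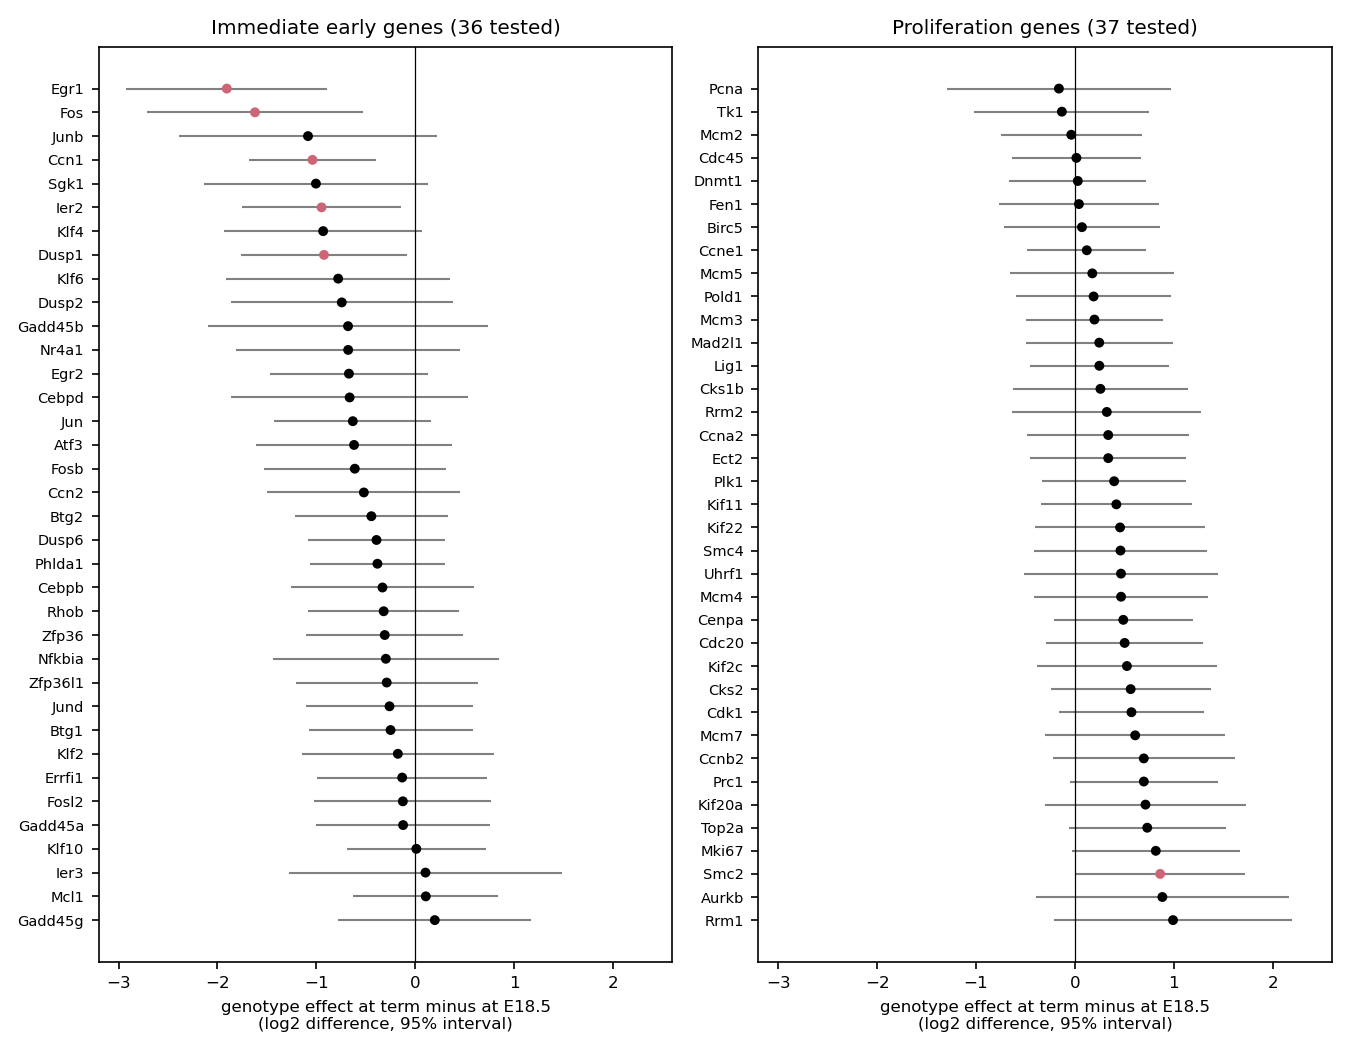
Each row is 1 tested gene of the immediate early list on the left (36 genes) or the proliferation list on the right (37 genes), with the genotype effect at term minus that at E18.5 as a log2 difference and its 95% interval, in red where the unadjusted p is under 0.05. On the left 32 points lie below 0 and 5 are red, on the right 34 lie above 0 and 1 is red, and most intervals include 0.

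Genes of cell division fell over birth in both genotypes, with the larger median change in the (+/+) lung, again with no member past the adjusted test of the difference. The list held 53 genes of DNA replication and mitosis, 47 of them on the array and 37 tested. At an adjusted p under 0.05, 32 fell in (+/+) lungs (11.5% of all tested probe sets did) and 20 in (-/-) lungs (9.51%), while 0 and 1 rose (13.1% and 11.6%). The median change was -1.35 in (+/+) and -0.87 in (-/-) lungs. The difference was positive for 34 and negative for 3 of the 37 (Tk1, Pcna and Mcm2, at -0.13, -0.16 and -0.04), with a median of 0.42. At an unadjusted p under 0.05, 1 of 37 was higher and 0 lower, where 0.656% and 0.812% of all tested probe sets were.

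Both times contributed to these differences. The median genotype effect of the 37 genes was -0.30 at E18.5 and 0.14 at term, so that their median began lower in (-/-) lungs and ended slightly higher. Their mean log2(signal + 16) was 6.88 to 7.18 on E18.5 (-/-) and 7.0 to 7.74 on E18.5 (+/+) arrays, and 5.99 to 6.38 on term (-/-) and 5.86 to 6.16 on term (+/+) arrays, with overlap at both times. The 7.74 was on E18.5 (+/+) replicate J, and the next highest was 7.30 on K. The term signals were low, where the added 16 damps differences. Leaving out any 1 array kept the median between 0.25, without F, and 0.53, without L.

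Smc2, a condensin subunit that compacts mitotic chromosomes, was the member past the unadjusted threshold. Its signals were 32.8, 32.8, 24.3, 54.3 and 57.7 in E18.5 (-/-) and 82.7, 129, 50.3, 54.2 and 100.2 in E18.5 (+/+) lungs, with overlap, and 26.7, 25.4 and 15.1 in term (-/-) and 24, 25 and 13.0 in term (+/+) lungs, where the genotypes shared a range near the level of dim probe sets. The difference was 0.86 (SE 0.41, 95% interval 0.00 to 1.72) (unadjusted p = 0.049), and 17 of 30 alternative settings kept the unadjusted p under 0.05.

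The proliferation marker Mki67 behaved alike, with 36.0, 79.5, 49.4, 129 and 73.0 in E18.5 (-/-), 85.5, 146, 90.4, 113 and 150.5 in E18.5 (+/+), 38.8, 43.9 and 21.2 in term (-/-) and 28.8, 29.0 and 25.2 in term (+/+) lungs. It differed by 0.82 (SE 0.41, 95% interval -0.03 to 1.67). Top2a, the topoisomerase that untangles replicated DNA, gave 0.73 (SE 0.38, 95% interval -0.06 to 1.53), and Prc1, which bundles the microtubules of the late spindle, 0.70 (SE 0.36, 95% interval -0.05 to 1.45). Cdk1, the kinase that starts mitosis, gave 0.57 (SE 0.35, 95% interval -0.16 to 1.31), and Ccnb2, a cyclin that activates it, 0.70 (SE 0.44, 95% interval -0.23 to 1.62). Each of these 5 intervals reached from below 0 to above 1, so neither no difference nor a doubling lies outside it. Pcna, the replication clamp, was 130.4, 128 and 208 in term (-/-) and 141, 173 and 202 in term (+/+) lungs, and differed by -0.16 (SE 0.54, 95% interval -1.29 to 0.97).

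**Figure D4:**
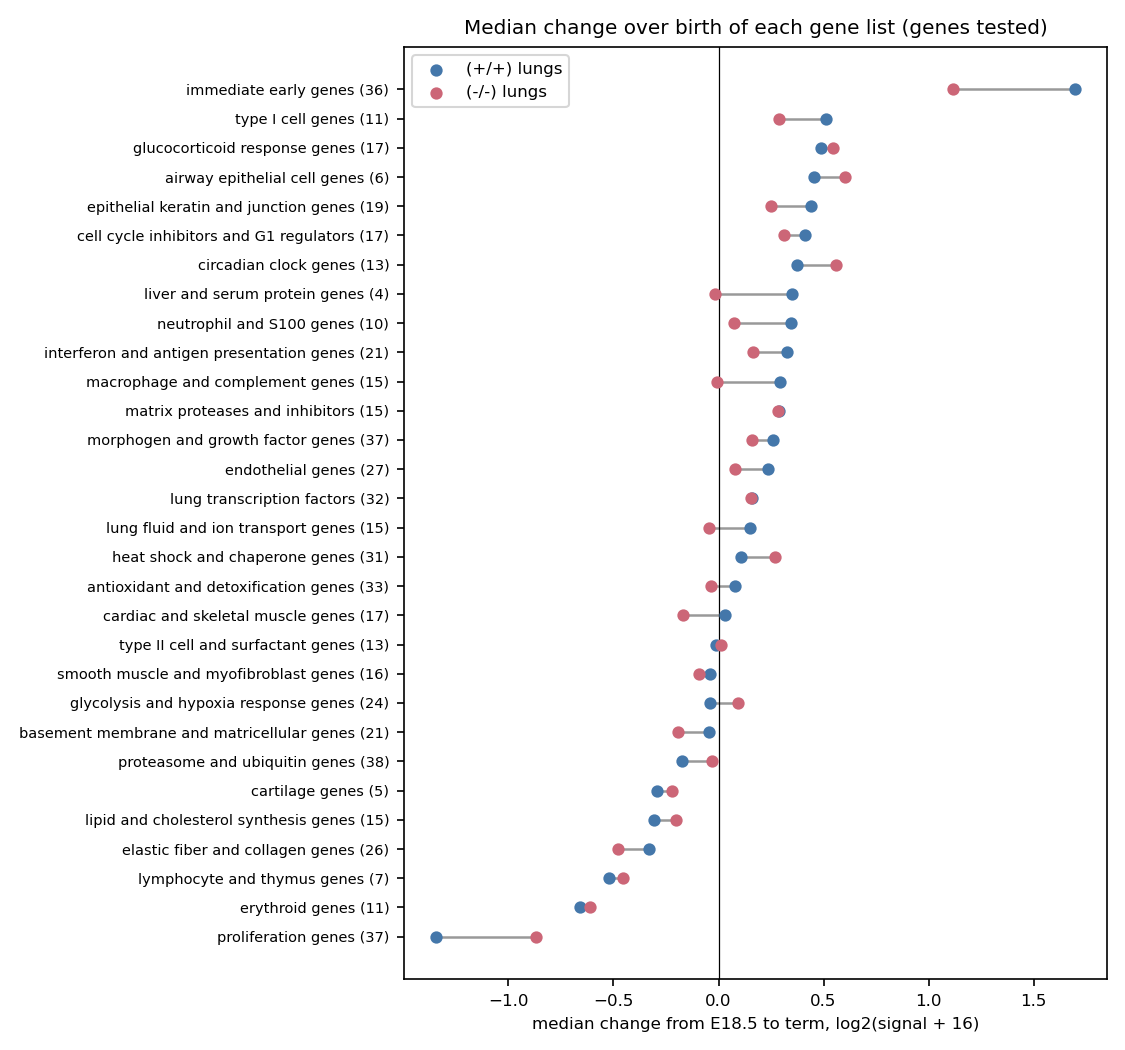
For each gene list the median change from E18.5 to term over its tested genes, as a difference of log2(signal + 16), is shown for (+/+) lungs in blue and (-/-) lungs in red, with the number of genes tested in parentheses. The immediate early genes (1.70 and 1.11) and the proliferation genes (-1.35 and -0.87) have the widest gaps and the largest changes, while most other lists lie near 0 in both genotypes.

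The 42 positive differences shared one layout. All 42 had a negative genotype effect at E18.5, 38 had a positive one at term, and for 34 the E18.5 effect was the larger. In 22 the signal was lower at term in (+/+) and higher at term in (-/-) lungs, in 9 it was higher and in 11 lower in both. The genotypes did not overlap at E18.5 in 11 and at term in 6 of the 42, against 1.08% and 3.25% of all tested probe sets. These probe sets were picked by their difference, so the layout is a description of them and no test.

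Asxl1, a Polycomb and trithorax group protein that regulates chromatin, had the lowest p of the positive differences, and its genotype effect changed sign. At E18.5 its signals were 102, 101, 103, 134 and 104 in (-/-) and 161, 122, 133, 235 and 132 in (+/+) lungs. At term they were 175, 217 and 153 in (-/-) and 123, 97.4 and 87.7 in (+/+) lungs, so that 4 of the 5 (-/-) lungs lay below every (+/+) lung before birth, with replicate D as the exception, and all 3 lay above every (+/+) lung after it. The effect was -0.43 at E18.5 and 0.74 at term, a difference of 1.17 (SE 0.31, 95% interval 0.53 to 1.81) (unadjusted p = 0.00105). All 31 alternative settings kept its unadjusted p under 0.05, with values from 0.89 to 1.31. Asxl1 is a gene that the study followed up by PCR from these arrays.

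In several positive differences the genotypes lay furthest apart at E18.5, with (-/-) below (+/+). Xpo1, the nuclear export receptor, was 41.5, 61.8, 50.2, 57.4 and 47.8 in E18.5 (-/-) and 64.7, 138, 99.8, 105 and 114 in E18.5 (+/+) lungs, with no overlap, and 90.8, 134 and 128 and 141, 103 and 58.2 at term, and it differed by 1.05 (SE 0.35). Clk1, a kinase that regulates splicing factors, was 272, 267, 237, 236 and 130.0 and 227, 628, 615, 596 and 363 at E18.5 and 829.7, 914 and 564 and 844, 501 and 536 at term, and changed by 1.70 in (-/-) and 0.41 in (+/+) lungs over birth. Its difference was 1.28 (SE 0.45), and (+/+) replicate I lay among the (-/-) arrays. Polr2g, an RNA polymerase II subunit, was 148, 103, 113, 199.8 and 169.7 and 265, 521, 220.4, 339.7 and 315 at E18.5, with no overlap, while the term ranges nearly coincided at 104 to 184 and 97.2 to 179, so that the E18.5 (+/+) lungs stood above the other 3 groups. It differed by 1.07 (SE 0.39).

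Vav1, a guanine nucleotide exchange factor of blood cells, also had its highest signals in E18.5 (+/+) lungs. It was 37.5, 30.1, 32.4, 28.0 and 27.2 in E18.5 (-/-) and 94.6, 180.5, 45.2, 118 and 227 in E18.5 (+/+) lungs, and 28.7, 19.4 and 8.8 and 10.8, 16.1 and 30.5 at term, and differed by 1.51 (SE 0.49) on a probe set whose name marks relaxed selection rules. Its other 2 probe sets were too dim to be tested. Atp5mpl, a small subunit of mitochondrial ATP synthase, was 255, 251, 128, 218 and 274 and 244, 902, 332, 501 and 1000.2 at E18.5 and differed by 1.44 (SE 0.53). The X-linked histone demethylase gene Kdm6a, which escapes X inactivation, was 34.0, 47.1, 32.0, 46.0 and 48.4 and 56.9, 62.3, 53.3, 103 and 87.2 at E18.5, and its difference of 0.92 (SE 0.34) was 0.82 with Xist as a covariate.

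Fam3c, a secreted cytokine-like protein, differed by 0.83 (SE 0.32) on 1 probe set and by -0.26 on its other tested probe set, so the 2 disagree in sign. Fam76b differed by 0.77 (SE 0.30), with term signals of 250.3, 258 and 179 and 247, 194 and 148. These lay above the E18.5 range of 50.9 to 67.1 in (-/-) and, by little, that of 82.4 to 139 in (+/+) lungs. Ankrd28, a regulatory subunit of protein phosphatase 6, was 46.8 to 68.6 in (-/-) and 75.8 to 114 in (+/+) lungs at E18.5, without overlap, and differed by 0.84 (SE 0.34).

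**Figure D5:**
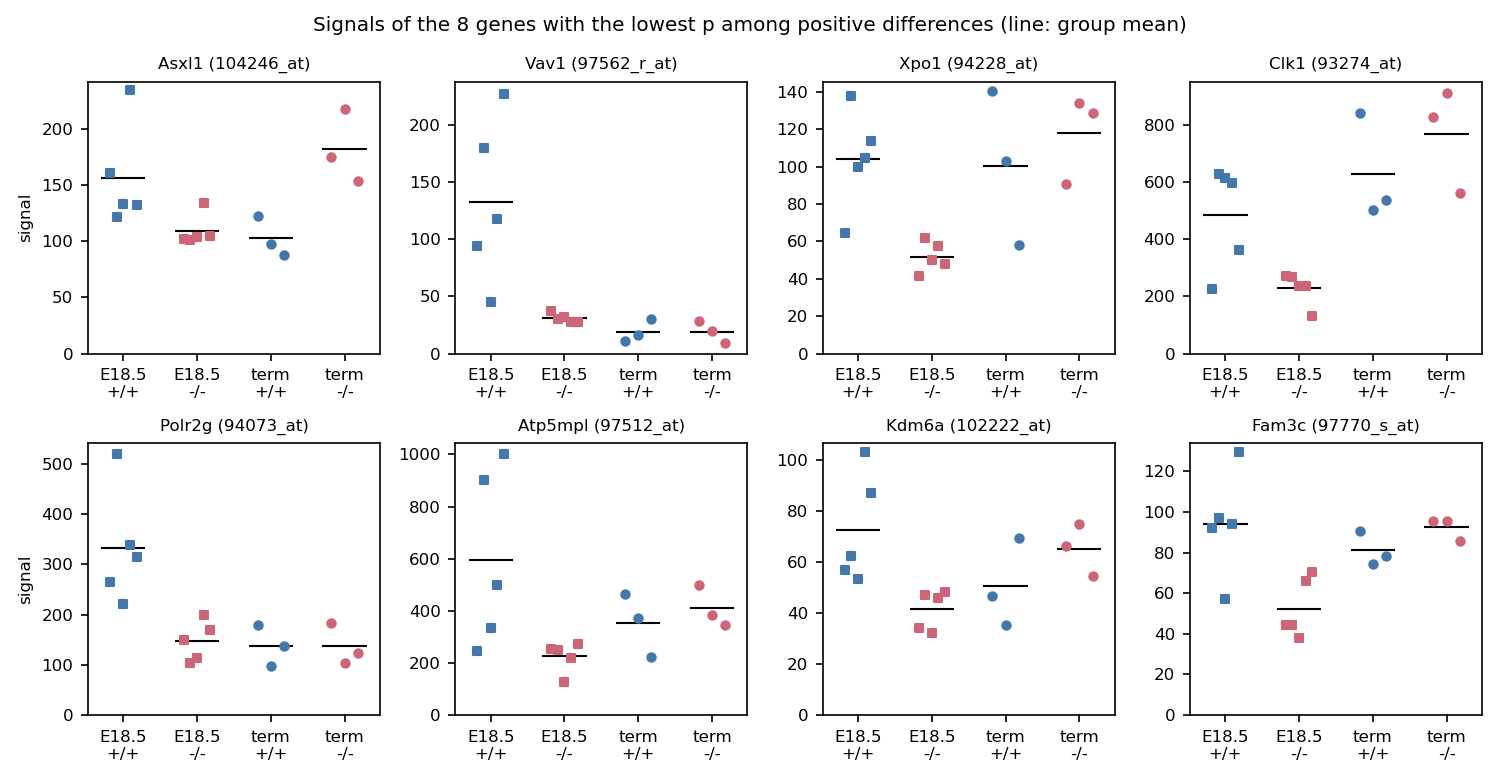
Each panel shows the signals of 1 of the 8 genes with the lowest p among the positive differences, with squares for E18.5 and circles for term arrays, blue for (+/+) and red for (-/-) lungs, a line at the group mean and a linear axis that starts at 0. In all 8 panels the E18.5 (-/-) mean is the lower of the E18.5 pair, and only Asxl1 shows (-/-) lungs above every (+/+) lung at term.

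The 52 negative differences were more mixed. The genotype effect was positive at E18.5 in 50 and negative at term in 49, and 31 had the larger effect at E18.5. In 21 the signal was higher at term in (+/+) and lower at term in (-/-) lungs, in 19 it was higher and in 12 lower in both. There was no overlap of the genotypes at E18.5 in 12 and at term in 15 of the 52, against the same shares of 1.08% and 3.25%, and these too were picked by their difference.

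H1f2, a linker histone, rose in both genotypes, from 246, 351, 445, 306 and 288 to 1281, 926 and 1001 in (-/-) lungs and from 137, 163, 271, 335 and 263 to 2592, 1677 and 1319.8 in (+/+) lungs. Every term (+/+) lung was above every term (-/-) lung, and the rises of 1.67 and 2.92 differed by -1.25 (SE 0.41). Ica1, an islet autoantigen involved in vesicle transport, went from 343, 401, 227, 416 and 316 to 149, 54.8 and 104 over birth in (-/-) lungs on a probe set of relaxed selection, against 218, 378, 113, 228 and 318 to 211, 265 and 196 in (+/+) lungs. The difference was -1.58 (SE 0.45), but the other tested probe set of Ica1 gave 0.39.

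Axin1, a scaffold of the complex that degrades β-catenin, was 138, 179, 173, 141 and 118 in E18.5 (-/-) and 108, 85.0, 101, 104 and 53.0 in E18.5 (+/+) lungs, with no overlap, and 106, 126 and 80.4 and 136, 114 and 153 at term, where the ranges overlapped. It differed by -0.99 (SE 0.32). Tnfaip2, a gene induced by tumor necrosis factor, was 129, 114, 121, 133 and 148 against 46.7, 47.6, 65.9, 60.9 and 102 at E18.5 and 75.0, 25.4 and 16.1 against 45.5, 31.0 and 54.5 at term, with a difference of -1.14 (SE 0.41). Both began higher in (-/-) lungs and lost that excess by term.

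Of the transporters, Slc31a1, the copper importer, was 362 to 412 in (-/-) and 212 to 309 in (+/+) lungs at E18.5, without overlap, and 284, 194 and 259 and 252, 292 and 312 at term. It differed by -0.79 (SE 0.28), with 0.12 on its other tested probe set. Slc48a1, a heme transporter, was 86.7, 55.1 and 94.3 and 113, 119 and 123 at term, without overlap, and differed by -1.12 (SE 0.38). Ctdsp2, a small phosphatase of the RNA polymerase II tail, differed by -0.88 (SE 0.30) on a probe set of relaxed selection, and its other tested probe set gave -0.71.

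In genes of the alveolar and airway epithelium no difference of the genotype effects passed a test. None of the 11 type I cell genes, 13 type II and surfactant genes and 6 airway genes tested passed an unadjusted p under 0.05. Only 1.47% of all tested probe sets did, so a count of 0 says little for lists of this size. The median differences of the 3 lists were 0.08, -0.11 and -0.07, against -0.01 over all probe sets. Ager, the type I cell receptor RAGE, differed by 0.09 (SE 0.59, 95% interval -1.14 to 1.31), and Hopx, a homeodomain protein of type I cells, by 0.08 (SE 0.40, 95% interval -0.75 to 0.91). Sftpc changed by -1.45 in (+/+) and -1.45 in (-/-) lungs over birth, a difference of 0.00 (SE 0.44, 95% interval -0.91 to 0.91), and Sftpb gave -0.09 (SE 0.40, 95% interval -0.94 to 0.75).

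The enzyme Lpcat1, which makes the main lipid of surfactant, came nearest to the threshold in these lists. It was 499.5, 591, 459, 601 and 639.9 in E18.5 (-/-) and 305, 303, 312, 345 and 412 in E18.5 (+/+) lungs, without overlap, and 703, 949 and 1192 and 700.1, 875 and 886 at term. At term the genotypes overlapped, with the (-/-) lungs still reaching higher. The difference was -0.53 (SE 0.31, 95% interval -1.16 to 0.11) (limma, unadjusted p = 0.1). Scgb1a1, the secretory protein of club cells, gave -0.56 (SE 0.47, 95% interval -1.54 to 0.42), and Foxj1, the master factor of ciliated cells, 0.05 (SE 0.38, 95% interval -0.74 to 0.84). The intervals of Lpcat1 and Scgb1a1 include a halving of the ratio between the genotypes, while that of Foxj1 lies within -1 and 1. Lpcat1 moved to -0.33 without replicate F and Scgb1a1 to -0.32 without K.

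Of matrix, vessel and transcription factor genes, few passed the unadjusted threshold, at which 0.656% of all tested probe sets were higher and 0.812% lower. In the basement membrane and matricellular list 1 of 21 was higher and 2 were lower (Ccn1 and Ccn3). Vcan, the proteoglycan versican, was 7.4, 31.1, 9.6, 20.1 and 53.1 in E18.5 (-/-) and 98.5, 151, 108, 65.4 and 59.7 in E18.5 (+/+) lungs, without overlap, and 71.7, 40.6 and 17.6 and 45, 75.7 and 39.5 at term, and differed by 1.24 (SE 0.52, 95% interval 0.16 to 2.32). Ccn3, a relative of Ccn1, was 166, 136 and 98.8 and 239.8, 306 and 133 at term and differed by -0.81 (SE 0.37, 95% interval -1.57 to -0.04). Foxf1, the forkhead factor of lung mesenchyme and endothelium, was the 1 of 32 lung transcription factors past the threshold. It was 114, 95.6, 80.7, 95.7 and 57.7 and 49.5, 67.7, 41.2, 65.9 and 79.5 at E18.5 and 105, 143 and 119 and 265, 226 and 103 at term, and changed by 0.42 in (-/-) and 1.41 in (+/+) lungs over birth, a difference of -0.99 (SE 0.38, 95% interval -1.78 to -0.20).

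Among 27 endothelial genes 1 was higher and 0 lower, where 0.656% and 0.812% of all tested probe sets were. The median difference of the 27 was -0.25, but 0.06 without term (+/+) replicate P. Vcam1, a leukocyte adhesion receptor, was 75.8, 67.8, 57.7, 118 and 86.6 and 107, 165, 91.5, 124 and 129 at E18.5 and 90.6, 93.5 and 60.1 and 76.6, 61.6 and 64.8 at term, a difference of 0.73 (SE 0.32, 95% interval 0.06 to 1.41). Efna3, the membrane ligand ephrin-A3, was higher in every E18.5 (-/-) lung, at 359.5 to 515 against 230.5 to 312, and shared a range at term, at 255 to 313 against 212 to 331. Its difference was -0.57 (SE 0.29, 95% interval -1.18 to 0.03). Gja4, the arterial connexin 37, had the same layout, with 120.3 to 161 against 50.7 to 89.6 at E18.5, 130.4, 57.4 and 213 against 119, 56.8 and 173 at term, and a difference of -0.70 (SE 0.44, 95% interval -1.61 to 0.22) that shrank to -0.26 without replicate G. For both genes the genotypes did not overlap at E18.5, but the interval of the difference included 0.

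Lists of innate immune and interferon genes gave negative medians, at -0.39 for 10 neutrophil and S100 genes, -0.25 for 15 macrophage and complement genes and -0.27 for 21 interferon and antigen presentation genes. They held 1, 0 and 1 member lower at an unadjusted p under 0.05, where 0.812% of all tested probe sets were lower and 0.656% higher. S100a9, a calcium-binding protein of neutrophils, was 100.3, 154 and 144 in term (-/-) and 271, 288 and 194 in term (+/+) lungs, without overlap, and 68.1 to 101 and 37.0 to 149 at E18.5. It differed by -0.86 (SE 0.40, 95% interval -1.68 to -0.04), with an unadjusted p under 0.05 in 19 of 31 alternative settings. Socs3, the feedback inhibitor of cytokine signaling, was 128, 193 and 126 and 307, 279 and 130.3 at term and differed by -0.76 (SE 0.35, 95% interval -1.49 to -0.02), past that threshold in 17 of 31. The erythroid, lymphocyte, cartilage and muscle lists had medians of 0.04, 0.07, 0.07 and -0.11 and 0 members past the threshold, while the 4 liver and serum protein genes had a median of -0.52, also with 0.

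In the stress and protein turnover lists, 4 genes passed the unadjusted threshold. Of all tested probe sets, 0.656% were higher and 0.812% lower at that threshold. The proteasome subunits Psma2 and Psma6 differed by 1.07 (SE 0.48, 95% interval 0.07 to 2.07) and 0.93 (SE 0.44, 95% interval 0.01 to 1.85), 2 of 38 proteasome and ubiquitin genes. Hsp90aa1, a stress-inducible chaperone, differed by 1.19 (SE 0.54, 95% interval 0.06 to 2.33) and Cct2, a subunit of the chaperonin that folds actin and tubulin, by -0.84 (SE 0.40, 95% interval -1.67 to -0.01), 2 of 31 heat shock and chaperone genes. The unadjusted p stayed under 0.05 in 20 of 31 alternative settings for Psma2, 14 of 31 for Psma6, 17 of 31 for Hsp90aa1 and 11 of 30 for Cct2. Psma2, Psma6 and Hsp90aa1 each had their highest E18.5 signal on (+/+) replicate J, which read 989 for Psma2, against 161 to 544 in the (-/-) lungs. Medians were 0.09 and 0.02 for these lists, 0.25 for 24 glycolysis and hypoxia genes and -0.16 for 33 antioxidant genes, and neither of the last 2 lists had a member past the threshold.

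Of the remaining lists, 17 glucocorticoid response genes had a median difference of -0.27 with 1 member lower at the unadjusted threshold (Dusp1). Of all tested probe sets, 0.812% were lower and 0.656% higher there. The other 9 lists had medians from -0.14 for lung fluid and ion transport genes to 0.22 for smooth muscle and myofibroblast genes, which became -0.0052 without term (-/-) replicate F, and 0 members past the unadjusted threshold in either direction. They covered the circadian clock, lipid and cholesterol synthesis, keratins and junctions, cell cycle inhibitors, elastic fibers and collagens, matrix proteases and morphogens as well.

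Of the 14 genes that the study followed up by PCR, 13 were on the array with a probe set of their own by the annotation and 12 were tested. No probe set is paired with Ptgs1 in the annotation used here, so Ptgs1 was not analysed here, and Rb1 was too dim, at 8.4, 24.5, 20.6, 23.0 and 17.9 and 26.2, 20.9, 24.8, 19.6 and 13.1 at E18.5 and 35.9, 27.9 and 32.4 and 54.6, 31.5 and 35.0 at term on the brighter of its 2 probe sets. Asxl1 was higher, and Egr1, Ccn1, Dusp1 and Dync1i1 were lower, at an unadjusted p under 0.05. Of all tested probe sets, 0.656% were higher and 0.812% lower at that threshold. For Ccn1 the study's other methods did not bear out the decrease on the arrays. By PCR the study reports Egr1, Nr4a1, Fosb and Dusp1 as lower in (-/-) lungs at term. It reports Efna3, also as protein, and cytoplasmic dynein as higher in (-/-) lungs at E18.5. Dync1i1, an intermediate chain of the motor protein cytoplasmic dynein, was 256, 256, 248, 178 and 191 and 128, 97.5, 147, 185 and 159 at E18.5, where only (-/-) replicate D lay within the (+/+) range, and 98.9, 148 and 103 and 125, 139 and 140.0 at term, with overlap. It differed by -0.82 (SE 0.31, 95% interval -1.46 to -0.17) (unadjusted p = 0.0155) on a probe set of relaxed selection. The other 7 did not pass. Apart from Pdpn, Efna3, Nr4a1 and Fosb, given above, they were the transcription factor Sp1 at 0.57 (SE 0.30, 95% interval -0.06 to 1.2), the complement subunit C1qa at -0.29 (SE 0.61, 95% interval -1.56 to 0.98) and the noncoding RNA host gene Gas5 at 0.17 (SE 0.34, 95% interval -0.54 to 0.88). The Gas5 value is from the only 1 of its 3 probe sets bright enough to be tested, which is not the one the study lists. That one read 27.9, 14.8, 24.1, 28.3 and 38.9 and 21.6, 22.2, 4.1, 4.6 and 6.1 at E18.5, and 19.6, 15.4 and 14.5 and 5.6, 3.7 and 7.1 at term without overlap, all below the level for testing. As these genes were chosen on the same arrays for a genotype effect at 1 time, their values here are a description.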

How the data were processed

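Signals of 16 T1α(-/-) and T1α(+/+) mouse lungs on Murine Genome U74Av2 arrays were used. Per the study's methods, the authors made each intensity with Microarray Suite 5.0 out of the perfect match and mismatch probes, with every array scaled, and the deposited values are linear intensities with 1 value a probe set. Detection p-values were not used. Groups came from the sample titles, with 5 lungs a genotype at E18.5 and 3 a genotype at term, and replicates are named by the letters there. Nothing says whether lungs shared a litter.

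The 66 control probe sets were left out. Testing was limited to probe sets whose median lay above 52.2, the signal exceeded by 45% of all values, in 1 group or more. log2(signal + 16) was fitted in limma 3.58.1 under R 4.3.3 (lmFit, then eBayes with an intensity trend), with 4 groups and 12 residual degrees of freedom. Tests were 2-sided, with Benjamini-Hochberg adjustment over 6405 probe sets. The fit was tested on simulated data. Python 3.11.15, pandas 2.3.3, numpy 2.4.6, scipy 1.17.1 and matplotlib 3.10.9 were used for the rest. The number of arrays limits the precision.

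Of the probe sets, 10833 had 1 gene symbol in the platform's annotation, 396 several and 1193 none, and only the first were named. A gene list used 1 probe set a gene, the brightest on the log2 scale among those tested. The contrast and the gene lists were chosen with earlier results of these data known. Genes are named by rule: Pdpn, the 10 differences of each sign with the lowest p and a gene name, from each list the 3 genes or fewer of lowest p, and the genes followed up by PCR. Named after their values were seen were Ier2, Junb, Atf3, Gadd45g, Mcl1, Ier3, Klf10, Top2a, Cdk1, Ccnb2, Tk1, Pcna, Mcm2, Ager, Hopx, Sftpc, Sftpb and Foxj1. Promoter sequences are from RefSeq on GRCm38.p6. Alternatives were other scalings, pseudocounts, filters, weights, covariates and variance models, and leaving out each array.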

Additional observations from a re-analysis of the deposited data

Results flagged for a closer look

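In 17 of 156 groups of 5 arrays that were checked, the highest or lowest array lay far from the others. Chance gives this in about 1 of 20 groups of normally distributed values. Linear signals need not be so distributed and the groups share arrays, so the 17 cannot be read as an excess. No explanation was tested. Among the E18.5 (-/-) lungs these were Asxl1 at 134 (next 104) and Cct2 at 136 (next 74.2) on replicate D, Ctdsp2 at 324 (next 233), Junb at 179 (next 73.2) and the GAPDH 3′ to 5′ ratio at 1.72 (next 1.16) on B, Ccnb2 at 813 (next 563), Mcm2 at 138 (next 90.6) and, as the lowest, Nr4a1 at 3.4 (next 31.3) on A, and Clk1, also the lowest, at 130 (next 236) on E. On probe sets too dim to be tested, Gas5 was highest at 19 (next 8.9) on A and Asxl1 lowest at 5.6 (next 32.4) on B. Among the E18.5 (+/+) lungs they were the median signal at 61 (next 44.6) and the mean of the absent bacterial controls at 35.3 (next 7.49) on replicate I, Fam76b at 139 (next 93.4) on J, Ier3 at 2132 (next 619) on K and, as the lowest, Ctdsp2 at 142 (next 165) on L, and the dim Gas5 probe set was highest at 33.3 (next 11.1) on I. The groups of 3 term arrays are too small for this check.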

How the results depend on the processing

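The count of probe sets past an adjusted p under 0.05 was 0 under every alternative but the linear signal, which gave 1 (Ccn1, adjusted p = 0.000337 by limma). That fit shares 1 spread between the dim E18.5 and the brighter term signals of Ccn1, so its p may be too low. The 94 at an unadjusted p under 0.05 became 165 with no filter on low signals, 51 with a stricter filter, set at a signal of 122, which left only 3805 probe sets to test, and 273 with array quality weights. Leaving out 1 array at a time gave 67 to 155, with 153 without E18.5 (+/+) replicate I and 155 without term (+/+) replicate P. The median difference kept its sign under all 31 alternatives for the immediate early genes (-0.64 to -0.34) and the proliferation genes (0.25 to 0.53). Of 28 other lists, 9 kept the sign of the median under all alternatives and 19 had the other sign under at least 1. No paired analysis was possible because each array has a letter of its own and the groups share no replicate number.

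Of 1970 alternative values for 64 probe sets of named genes, 1890 kept their direction and side of the adjusted threshold, and 79 had the other sign, in 15 genes with differences near 0. These genes had no call, so the changes of sign end none. As linear signals the differences turned to -2.54 for Pdpn, -9.41 for Mcl1, 3.05 for Pcna, -596 for Sftpc and -899 for Ager, in units of signal. On the log2 scale, array quality weights turned C1qa to 0.18, Ier3 to -0.070, Gadd45g to -0.091, Klf10 to -0.017, Tk1 to 0.17, Sftpb to 0.16 and Foxj1 to -0.20. Median centering gave -0.024 for Klf10 and -0.033 for Sftpc, and quantile normalization -0.027 for Sftpc and 0.18 for Sftpb. The GAPDH ratio as a covariate gave -0.017 for Klf10, -0.0042 for Sftpc and -0.013 for Ager, and Xist 0.073 for Mcm2 and -0.056 for Sftpc. The signal exceeded by the brightest 0.5% as a covariate, an alternative chosen after seeing the data, gave -0.0064 for Klf10, -0.071 for Sftpc, -0.020 for Hopx and -0.016 for Ager. The cause was not tested. Under the stricter filter no lymphocyte gene was left for a median.

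Leaving out 1 array at a time turned the sign for the same 15 genes. The ranges were -0.25 to 0.78 for Pdpn, -0.85 to 0.36 for C1qa, -0.023 to 0.44 for Gas5, -0.48 to 0.42 for Ier3, -0.15 to 0.45 for Gadd45g, -0.043 to 0.37 for Mcl1, -0.12 to 0.18 for Klf10, -0.42 to 0.10 for Pcna, -0.37 to 0.040 for Tk1, -0.24 to 0.16 for Mcm2, -0.16 to 0.18 for Sftpc, -0.25 to 0.090 for Sftpb, -0.15 to 0.23 for Hopx, -0.34 to 0.67 for Ager and -0.14 to 0.19 for Foxj1. The term groups of 3 lungs limit all of these values, and the signals give no depth in reads.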
